A study of Homo sapiens with 12 samples.

Results

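The lysosome and V-ATPase genes are a set of 40 genes chosen by name for their known place in the lysosome or in the proton pump that acidifies it, with earlier results of these data known. Each of the 40 matched a single Ensembl gene ID among the 40173 IDs of the expression table. All 40 reached a mean of 2 TPM (a transcript level scaled for length and library total) in at least 1 group, the limit that left 12773 IDs for testing, so that no member was lost to the filter. By role they were 7 subunits of the membrane part (V0) of the V-ATPase, 8 subunits of its cytosolic part (V1), 2 accessory proteins of the pump, 7 cathepsins and other proteases, 5 glycosidases, 5 genes of lipid handling, and 6 genes for membrane proteins, a channel and an autophagy receptor.

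RNA was sequenced from 624Mel, an established human melanoma cell line, in 4 groups with 3 libraries each. The siRNA targeted MITF (siMITF) or was a control (siCTRL), and cells of each kind were left without interferon gamma (IFNγ) or given IFNγ at 5 ng/mL for 24 h, starting 24 h after transfection. The groups were therefore siCTRL, siCTRL + IFNγ, siMITF and siMITF + IFNγ, and what they share is the transfection itself. The model is 1 cell line with a transient knockdown that lowered MITF mRNA without removing it, and the study's methods describe its replicates as independent biological ones.

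Lysosomes break down proteins, lipids and sugars with hydrolases that work in acid. The V-ATPase provides that acid: V1 hydrolyses ATP in the cytosol and turns a rotor, and the rotor drives protons through the V0 ring in the membrane. MITF belongs with TFEB, TFE3 and TFEC to a family of transcription factors that bind the E-box CACGTG. TFEB and TFE3 are known as regulators of lysosomal genes through an extended form of that motif, and MITF as the regulator of the melanocyte lineage, whose pigment organelle, the melanosome, is related to the lysosome and shares proteins with it. IFNγ is known to raise lysosomal proteases that prepare antigens.

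The promoters that hold the extended E-box are shown first, because the siRNA target belongs to the factors known to bind it. RefSeq promoter entries (GRCh38.p14, 250 bases before to 50 bases after each start) were found for 29 of the 40 members, with 44 starts in all. Entries were not found for ASAH1, ATP6V0E1, ATP6V1A, ATP6V1B2, ATP6V1C1, ATP6V1H, CTSB, CTSK, HEXA, LAMP2 and PSAP. The 8 letters TCACGTGA, which read the same on both strands, stood in the promoters of 5 members, and each window below runs over 100 bases from position -80, with the first transcribed base as 0 and the motif in capitals. GPNMB was added after its values were seen, as the strongly lowered member with the CATGTG core of the M-box, here as its reverse complement CACATG in capitals at -62, with a second match at -123 outside the window.
ATP6V0D1, chr16:67481138-67481237, minus strand: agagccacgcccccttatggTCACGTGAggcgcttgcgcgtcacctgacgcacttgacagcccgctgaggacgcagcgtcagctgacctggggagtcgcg
ATP6V1G1, chr9:114587689-114587788, plus strand: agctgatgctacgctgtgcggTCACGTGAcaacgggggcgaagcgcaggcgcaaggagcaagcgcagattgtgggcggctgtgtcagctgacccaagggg
CTSA, chr20:45891255-45891354, plus strand: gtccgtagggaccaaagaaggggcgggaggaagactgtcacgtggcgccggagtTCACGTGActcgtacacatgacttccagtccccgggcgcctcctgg
LAMP1, chr13:113297159-113297258, plus strand: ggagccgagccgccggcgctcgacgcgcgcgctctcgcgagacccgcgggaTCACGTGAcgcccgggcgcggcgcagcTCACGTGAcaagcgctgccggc
MCOLN1, chr19:7522544-7522643, plus strand: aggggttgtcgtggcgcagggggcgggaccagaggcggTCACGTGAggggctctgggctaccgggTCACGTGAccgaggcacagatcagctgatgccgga
GPNMB, chr7:23246695-23246794, plus strand: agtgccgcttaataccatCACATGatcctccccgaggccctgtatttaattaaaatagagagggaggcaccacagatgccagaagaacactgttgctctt

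Being scaled for length, TPM can be compared between genes. Table sums ran from 975336 to 982632 TPM per library, and read depth is unknown from TPM, so no counting interval is given. The siRNA target was lowered in every siMITF library: MITF stood at 187, 229 and 217 TPM in siCTRL and at 36.0, 49.7 and 41.7 TPM in siMITF. Of the melanocytic markers MLANA, PMEL, DCT, TYR and SOX10, 5 of 5 reached 2 TPM in a library, with summed levels of 5740 to 6770 TPM in siCTRL and 1470 to 1690 TPM in siMITF, while none of 4 T and B cell, 4 macrophage and osteoclast and 3 keratinocyte markers did so and 1 of 4 fibroblast markers did (summed 2.66 to 8.64 TPM). Mitochondrially encoded genes took between 7.42% and 16.9% of a library, with replicate 2 lowest in each group, and its part in the results was not tested. With libraries rescaled without these genes the members called were 30 in place of 27 for siMITF without IFNγ, 30 in place of 24 with IFNγ and 30 in place of 26 for both treatments together. Calls over all tested genes rose as well, from 4448, 4229 and 5688 of 12773 to 5461, 5327 and 6557 of 13032 in that order.

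Together the 40 members took 9360, 9422 and 10441 TPM in the siCTRL libraries and 6792, 6838 and 7246 TPM in the siMITF libraries, and these ranges do not overlap. With IFNγ the sums were 9769, 10681 and 12012 TPM in siCTRL cells and 7287, 8109 and 8248 TPM in siMITF cells, again apart. The 17 V-ATPase members alone summed to 2569 to 2853 TPM in siCTRL and to 2175 to 2261 TPM in siMITF. In bulk RNA, fewer cells with a transcript and less of the transcript per cell cannot be told apart.

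**Figure D1:**
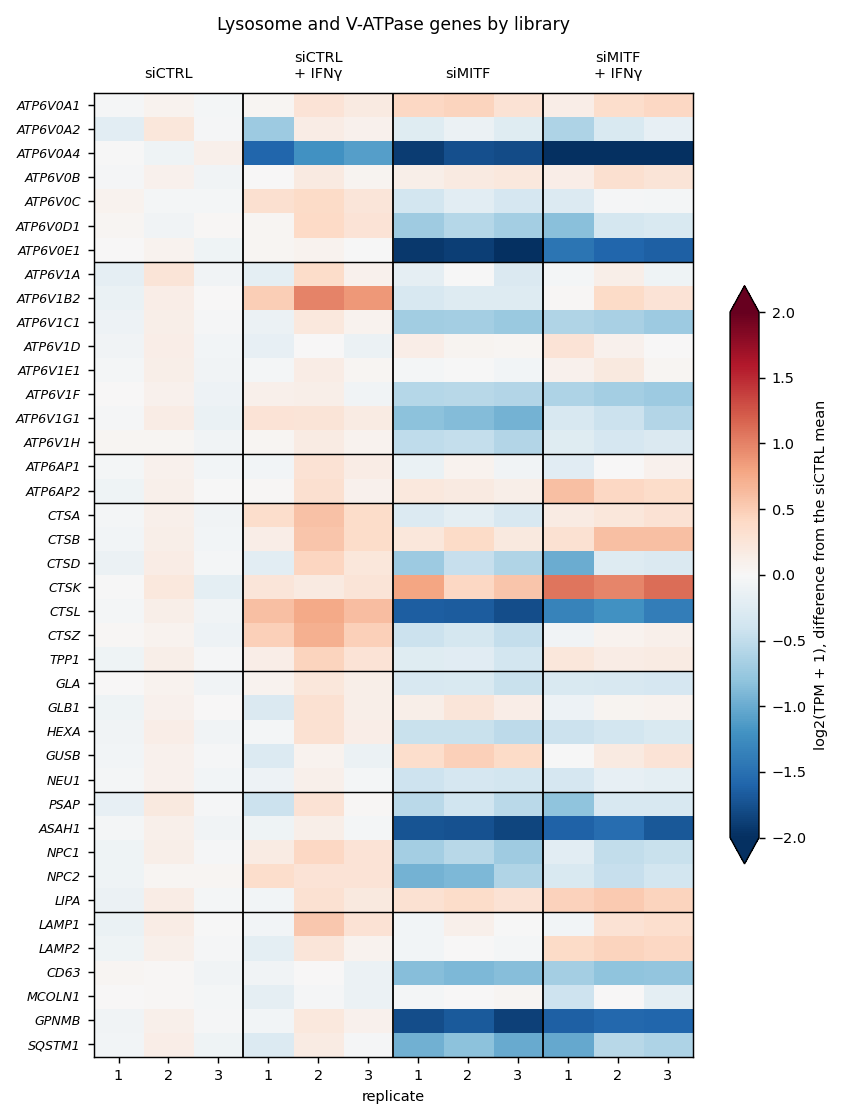
The level of each of the 40 genes (rows, grouped by role) in each of the 12 libraries (columns), as the difference in log2(TPM + 1) from the mean of the siCTRL libraries. Blue is lower and red is higher, the scale is cut at 2 in both directions, and 5 rows (ATP6V0A4, ATP6V0E1, CTSL, ASAH1 and GPNMB) are dark blue in the siMITF libraries of both IFNγ states.

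The first comparison asked how the lysosomal genes stood after MITF knockdown without IFNγ. Most members fell: 23 of 40 were lower in siMITF than in siCTRL cells and 4 were higher at an adjusted p under 0.05, in a limma fit on log2(TPM + 1) with 3 libraries per group and adjustment over all genes tested. Of all tested genes 34.8% were called in this comparison, 21.0% higher and 13.8% lower, against 67.5% of the members. The median member differed by -0.33 on the log2 scale, with a range from -1.96 to 0.59, beside a median of 0.06 over all genes. Libraries of the groups did not overlap for 24 members on the lower and 8 on the higher side, where 22.0% and 33.0% of all tested genes were so separated. The study's own rule also asks for a 2-fold change, read here on the log2(TPM + 1) scale. It further asks for at least 2 TPM, read here as the mean of a group compared. Under that rule 5 members passed, all lower: ATP6V0E1, ATP6V0A4, GPNMB, ASAH1 and CTSL. Of all tested genes 6.1% passed that rule, 3.22% higher and 2.88% lower. With 3 libraries on each side, exact permutation of the labels (two-sided) reaches 0.1 at the least, so single genes rest on the fit across all genes.

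Within V0 the changes were unequal, and 4 of 7 subunits fell while 1 rose. ATP6V0E1, the small e subunit (ENSG00000113732, GRCh38 chromosome 5, 172983771 to 173035445), read 193, 202 and 181 TPM in siCTRL and 49.8, 51.3 and 44.7 TPM in siMITF. All siMITF libraries lay far below all siCTRL libraries. The means, 192 ± 10.8 and 48.6 ± 3.44 TPM (SD, n = 3), differed 3.95-fold, and the log2 difference of -1.96 ± 0.08 (SE) had an adjusted p of 2.09e-09. Pseudogene IDs of ATP6V0E1 summed to at most 3.85 TPM in a library, which is small beside these levels.

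The a subunit of V0, through which protons pass and which sets where the pump sits, has 4 isoforms, and 3 of them are members. ATP6V0A4, the isoform known from acid-secreting cells of the kidney (ENSG00000105929, chromosome 7, 138706294 to 138799560), read 9.29, 8.67 and 10.0 TPM in siCTRL and 1.78, 2.04 and 1.98 TPM in siMITF. It fell 4.82-fold, with a log2 difference of -1.81 ± 0.13 (SE) and an adjusted p of 4.11e-07. ATP6V0A1, the broadly expressed isoform, moved the other way, from 27.4, 29.3 and 27.1 TPM to 37.6, 38.5 and 34.2 TPM, a log2 rise of 0.38 ± 0.09 (SE) with an adjusted p of 0.00677. ATP6V0A2, the Golgi and endosome isoform, read 14.5, 20.2 and 16.8 TPM and then 14.2, 15.5 and 14.2 TPM, and the groups overlapped.

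With TCIRG1, the fourth isoform, which is no member, the a subunit genes summed to a mean of 67.1 TPM in siCTRL and 64.3 TPM in siMITF. Within that sum the share of ATP6V0A4 was 13.9% ± 1.32 in siCTRL and 3.01% ± 0.236 in siMITF (SD, n = 3), and the share of ATP6V0A1 was 41.6% ± 1.04 and 57.2% ± 1.31. IFNγ alone gave ATP6V0A4 a share of 5.04% ± 0.603, and both treatments 1.57% ± 0.212. The shares were computed after the values of the isoforms were seen and carry no test.

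The c ring and its neighbours showed smaller differences. ATP6V0C, the c subunit that forms most of the ring, fell from 245, 229 and 229 TPM to 182, 202 and 185 TPM (log2 -0.30 ± 0.08 SE, adjusted p 0.00929). ATP6V0D1, which couples the ring to the rotor, fell from 114, 105 and 113 TPM to 67.3, 74.1 and 68.5 TPM (log2 -0.66 ± 0.13 SE, adjusted p 0.00178). ATP6V0B, the other ring subunit, read 414, 448 and 402 TPM and then 458, 476 and 488 TPM. Its siMITF libraries all lay above its siCTRL libraries, yet the log2 difference of 0.17 had an adjusted p of 0.0781, and of 0.0160 once the replicate number was a blocking term.

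In V1, 4 of 8 subunits fell and none rose. ATP6V1G1, of the peripheral stalk, read 205, 231 and 190 TPM in siCTRL and 117, 114 and 108 TPM in siMITF (log2 -0.88 ± 0.09 SE, adjusted p 7.51e-06). ATP6V1C1, which joins V1 to V0 and is released when the pump is taken apart, fell by 0.70 on the log2 scale, ATP6V1F of the rotor by 0.57 and ATP6V1H, a regulator of the pump, by 0.52, each with no overlap between the libraries. The catalytic subunit ATP6V1A and the stalk and rotor subunits ATP6V1E1 and ATP6V1D did not pass the test, and their groups overlapped. For ATP6V1E1, at 382, 427 and 376 TPM against 382, 392 and 381 TPM, the 95% interval of the log2 difference ran from -0.19 to 0.12. Across the V0 and V1 genes, some of which are alternative isoforms, the log2 differences ran from -1.96 to 0.38.

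ATP6V1B2, the B subunit that binds ATP beside the catalytic one, read 140, 168 and 155 TPM in siCTRL and 123, 129 and 128 TPM in siMITF. The groups did not overlap, and the log2 difference of -0.28 had an adjusted p of 0.107, of 0.00702 with the replicate block and of 0.0347 without the first siCTRL + IFNγ library. Neither accessory protein passed. ATP6AP1 differed by -0.04 and ATP6AP2, also known as the prorenin receptor, by 0.17 on the log2 scale (95% interval of ATP6AP1 from -0.27 to 0.18).

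Among the proteases, 5 of 7 fell and 1 rose. CTSL, an endopeptidase of the cathepsin family (ENSG00000135047, chromosome 9, 87724051 to 87731469), read 269, 299 and 263 TPM in siCTRL and 87.2, 87.0 and 80.2 TPM in siMITF. No library of either group came near the other group, and the 3.27-fold fall (log2 -1.70 ± 0.08 SE) had an adjusted p of 6.36e-09. CTSZ, a carboxypeptidase, fell by 0.42 and CTSD, the main aspartic protease of lysosomes, by 0.59 on the log2 scale. CTSA, which also stabilises other lysosomal enzymes, fell by 0.26 and TPP1, a tripeptidyl peptidase, by 0.27.

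The smaller of these falls depended on single libraries. CTSD lost its call without siCTRL replicate 2 or 3 or siMITF replicate 1 or 3 (adjusted p 0.0667 to 0.1), CTSA without siCTRL replicate 2 or siMITF replicate 1 or 3 (0.0589 to 0.0785), and TPP1 without siCTRL replicate 2 or 3 or any 1 siMITF library (0.0512 to 0.117). CTSB, the most abundant cathepsin here at 884, 995 and 890 TPM, read 1077, 1198 and 1055 TPM in siMITF. All siMITF libraries were higher, and the log2 difference of 0.27 had an adjusted p of 0.0854, of 0.00610 with the replicate block, and of 0.0439 and 0.0497 without the first siCTRL + IFNγ or the first siMITF + IFNγ library. CTSK, the collagen-degrading cathepsin known from osteoclasts, rose from 0.745, 1.03 and 0.541 TPM to 2.05, 1.36 and 1.59 TPM. Its level was the lowest of all members in siCTRL cells, its log2 rise of 0.59 ± 0.13 (SE) had an adjusted p of 0.00326, and the call was lost under quantile normalization (0.0614). CTSK reached the 2 TPM limit for testing only in siMITF + IFNγ cells, at a mean of 2.66 TPM. Its rises into that group, given below, rest on the values that admitted it to testing and are a description. The rise without IFNγ is a description as well, since both means, 1.67 TPM in siMITF and 0.772 TPM in siCTRL, lay below the limit. The counts of called members include CTSK wherever it passed.

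Lipid handling was the role in which all members passed: 4 of 5 fell and 1 rose. ASAH1, the acid ceramidase (ENSG00000104763), read 435, 479 and 424 TPM in siCTRL and 134, 133 and 125 TPM in siMITF, a 3.41-fold fall (log2 -1.76 ± 0.08 SE, adjusted p 5.22e-09). The cholesterol exporters of the lysosome moved alike: NPC2 fell by 0.82 and NPC1 by 0.65 on the log2 scale, with adjusted p of 1.73e-05 and 0.000275. PSAP, the precursor of the saposins that present sphingolipids to their hydrolases, read 1013, 1295 and 1111 TPM and then 780, 864 and 777 TPM. Its fall of 0.49 was called at an adjusted p of 0.0415 and lost without siCTRL replicate 2 or 3, siCTRL + IFNγ replicate 3 or any 1 siMITF library (0.0543 to 0.141). LIPA, the acid lipase, rose from 28.3, 34.1 and 29.7 TPM to 38.0, 39.6 and 37.7 TPM (log2 0.32 ± 0.10 SE, adjusted p 0.0231), a call lost without siCTRL replicate 1 or 3 or any 1 siMITF library (0.0510 to 0.0997).

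Of the glycosidases 3 of 5 fell and 1 rose. HEXA, the alpha subunit of beta-hexosaminidase, fell by 0.48, GLA (alpha-galactosidase A) by 0.36 and NEU1 (sialidase) by 0.37 on the log2 scale, with adjusted p of 0.00125, 0.00197 and 0.00607. NEU1 lies in the MHC region, where copies of a gene on alternate haplotypes can split reads, which was not measured here. GUSB (beta-glucuronidase) rose from 35.6, 39.3 and 36.5 TPM to 47.4, 52.0 and 48.5 TPM (adjusted p 0.00778). That value is uncertain, since 18 pseudogene IDs of GUSB summed to as much as 40.0 TPM in a library and reads can be split among such copies. GLB1 (beta-galactosidase) differed by 0.16, with an adjusted p of 0.368.

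The membrane group divided in equal parts, with 3 of 6 lower and 3 that did not pass. GPNMB, a glycoprotein of melanosomes and lysosomes (ENSG00000136235, chromosome 7, 23235967 to 23275108), read 611, 685 and 627 TPM in siCTRL and 186, 199 and 174 TPM in siMITF. It fell 3.44-fold (log2 -1.78 ± 0.08 SE, adjusted p 5.89e-09), and its promoter is the one shown with CATGTG in place of the E-box. CD63, a tetraspanin of the same organelles and the most abundant member in siCTRL cells, fell from 1469, 1450 and 1354 TPM to 791, 765 and 785 TPM (log2 -0.87 ± 0.06 SE, adjusted p 2.76e-07). SQSTM1, the autophagy receptor p62, fell from 423, 481 and 415 TPM to 224, 249 and 217 TPM (log2 -0.93 ± 0.13 SE, adjusted p 0.000139).

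The structural proteins of the lysosomal membrane gave no such difference. LAMP1 read 176, 215 and 193 TPM in siCTRL and 186, 209 and 194 TPM in siMITF, and the 95% interval of its log2 difference ran from -0.29 to 0.32. LAMP2 (interval from -0.24 to 0.18) and the calcium channel gene MCOLN1 (from -0.21 to 0.22) also overlapped between groups. These intervals leave out a 2-fold change in either direction.

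**Figure D2:**
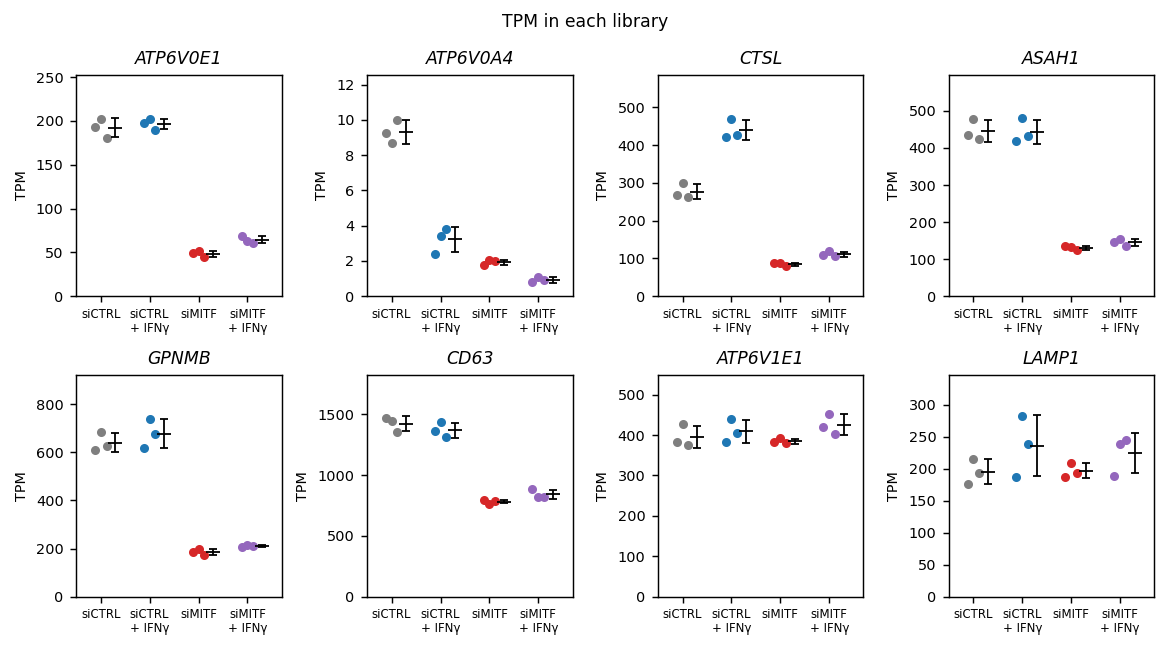
TPM of 8 of the genes in each of the 12 libraries (points, replicates 1 to 3 from left to right), with the group mean ± SD (n = 3) beside them and every vertical axis from 0. ATP6V0E1, CTSL, ASAH1, GPNMB and CD63 are lower in all siMITF libraries of either IFNγ state, ATP6V0A4 is lowered by each treatment, and ATP6V1E1 and LAMP1 overlap between siCTRL and siMITF.

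The same knockdown was compared again in the other 6 libraries, all of which had IFNγ, so that its group means share no library with those of the first contrast. The spread was estimated in the same fit over all 12 libraries, so the calls of the contrasts are not independent. Here 20 of 40 members fell and 4 rose, where 33.1% of all tested genes were called, 14.7% lower and 18.4% higher. The median member differed by -0.41, beside 0.03 over all genes, and libraries did not overlap for 22 members on the lower and 5 on the higher side, with 17.0% and 21.3% of all tested genes so separated. By name, 19 members were lower in both contrasts and 2, CTSK and LIPA, were higher in both. A further 6 passed without IFNγ only (ATP6V0A1, CTSA, TPP1, GUSB, NEU1 and PSAP), 3 with IFNγ only (ATP6V1B2, ATP6AP2 and LAMP2), and 10 in neither. No share of all tested genes is given for these joint counts, which are a description. Passing in a single contrast does not show that the effects differ, and the test of that difference follows under the interaction.

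Across the 40 genes the effects of siMITF in the IFNγ states correlated with Pearson's r of 0.954 and Spearman's rho of 0.954, as a description over genes that share their libraries. The median size of the difference between them was 0.131 on the log2 scale. CTSL fell most with IFNγ, from 421, 469 and 427 TPM to 109, 119 and 106 TPM (log2 -1.97 ± 0.08 SE, adjusted p 2.68e-09). ATP6V0E1 read 198, 202 and 190 TPM against 69.0, 63.1 and 61.2 TPM (log2 -1.59), GPNMB differed by -1.68, ASAH1 by -1.61 and ATP6V0A4 by -1.12. Those 5 again were the members that passed the 2-fold rule, which 5.68% of all tested genes passed, 3.12% higher and 2.57% lower. CTSK rose by 0.83, which at its low level of 2.68, 2.47 and 2.84 TPM against 1.09, 1.00 and 1.10 TPM was a 2.5-fold rise in mean TPM, more than the log2(TPM + 1) scale shows. Since siMITF + IFNγ was the only group in which CTSK met the limit for testing, this rise is a description. LIPA rose by 0.33, a call lost without siCTRL + IFNγ replicate 1 (adjusted p 0.0648) or siMITF + IFNγ replicate 2 (0.0674).

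Members that passed here alone were of modest size. LAMP2 read 128, 174 and 154 TPM in siCTRL + IFNγ and 191, 198 and 195 TPM in siMITF + IFNγ (log2 0.37, adjusted p 0.0105, and 0.0588 in a fit of these groups alone). ATP6V1B2 fell by 0.55, and ATP6AP2 rose by 0.32, a call lost without siCTRL + IFNγ replicate 1 or 3 or siMITF + IFNγ replicate 1 (0.0550 to 0.0674). CTSD, which passed in both contrasts, fell by 0.66 here, a call lost without siCTRL + IFNγ replicate 2 or 3 or siMITF + IFNγ replicate 1 (0.0534 to 0.0746). For PSAP, at 845, 1384 and 1158 TPM against 645, 906 and 909 TPM, the adjusted p was 0.0631, it was 0.00195 with the replicate block, and it was 0.00625 without siCTRL + IFNγ replicate 1, which was the lowest of its group. The block also called CTSA (log2 -0.21, adjusted p 0.0109), NEU1 (-0.22, 0.0273), GUSB (0.26, 0.0103), ATP6V0B (0.16, 0.0233) and ATP6V1D (0.21, 0.0353). Of all 12773 tested genes the block called 5912 here, in place of 4229.

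**Figure D3:**
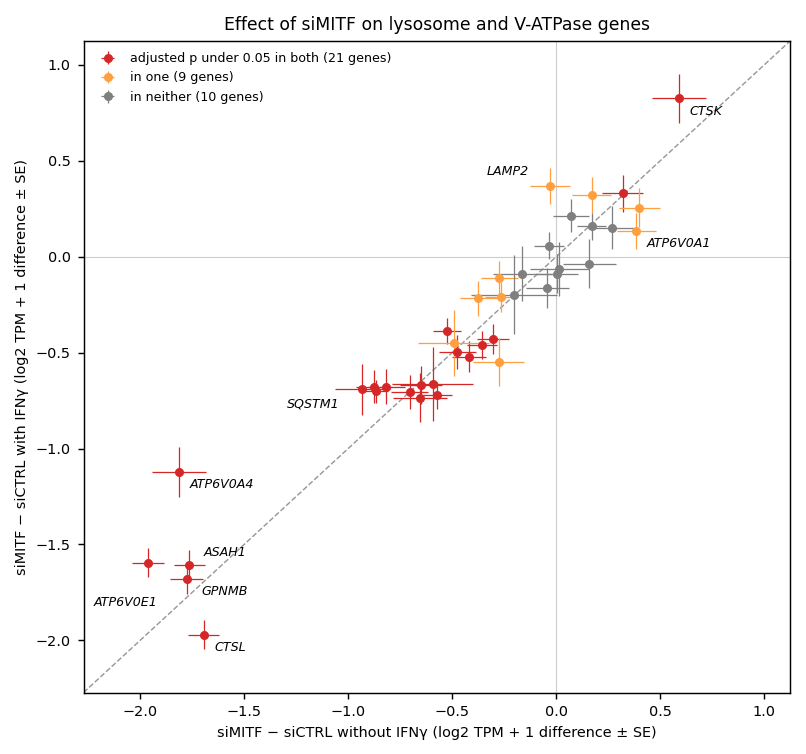
The siMITF effect on each of the 40 genes without IFNγ (horizontal) and with IFNγ (vertical), as differences in log2(TPM + 1) with their SE, coloured by whether the adjusted p was under 0.05 in both contrasts (21 genes), one (9) or neither (10). The points lie along the dashed line of equal effects, with 5 genes far to the lower left and ATP6V0A4 above the line.

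The next comparisons asked how IFNγ moved the members in each siRNA. In siCTRL cells 6 of 40 rose and 1 fell, where 12.9% of all tested genes were called (6.8% higher, 6.14% lower), and the median member differed by 0.11 beside -0.07 over all genes. A block on the replicate number called 12 members, 11 of them higher (25.7% of all genes, 9.67% higher and 16.0% lower). The split over all genes also moved with scaling, from 868 higher and 784 lower to 1178 higher and 1647 lower under quantile normalization. Libraries did not overlap for 11 members on the higher and 1 on the lower side, where 11.7% and 18.1% of all tested genes were so separated. In siMITF cells 12 members rose and 1 fell, where 20.2% of all tested genes were called (7.99% higher, 12.2% lower), and the block called 20, of which 18 were higher (35.7% of all genes, 11.2% higher and 24.5% lower). Here 20 members lay apart on the higher and 4 on the lower side, beside 12.1% and 28.4% of all tested genes. Under the 2-fold rule 1 member passed in siCTRL cells, beside 2.52% of all tested genes (2.42% higher, 0.102% lower). None passed it in siMITF cells, beside 2.95% (2.72% higher, 0.227% lower). ATP6V0A4 could not pass there, since its means of 1.93 and 0.929 TPM lay below the rule's 2 TPM. An unadjusted limma p under 0.05 was reached there by 17 members and by 4321 of the 12773 tested genes.

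Proteases were the role with the most rises, 3 of 7 in siCTRL cells and 5 of 7 in siMITF cells. CTSL rose from 269, 299 and 263 TPM to 421, 469 and 427 TPM in siCTRL cells, 1.58-fold (log2 0.66 ± 0.08 SE, adjusted p 5.36e-05). In siMITF cells it rose from 87.2, 87.0 and 80.2 TPM to 109, 119 and 106 TPM (log2 0.39, adjusted p 0.00324), and those levels stayed below every siCTRL library. CTSZ rose by 0.55 and 0.45, and CTSA by 0.44 and 0.49, in siCTRL and siMITF cells in that order. TPP1 rose in siMITF cells by 0.45, and in siCTRL cells its difference of 0.29 had an adjusted p of 0.0538, of 0.0140 with the block, and of 0.0495, 0.0189 and 0.0474 without siCTRL replicate 2, siCTRL + IFNγ replicate 1 or siMITF + IFNγ replicate 1. CTSB differed by 0.35 (adjusted p 0.0611) and 0.24 (0.162), and both were called with the block (0.00259 and 0.0177), the first also without siCTRL + IFNγ replicate 1 (0.0153) or siMITF + IFNγ replicate 1 (0.0323).

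Of the pump, ATP6V1B2 rose most. It read 140, 168 and 155 TPM in siCTRL and 216, 306 and 281 TPM in siCTRL + IFNγ, without overlap and 1.73-fold higher (log2 0.78 ± 0.12 SE, adjusted p 0.00106). In siMITF cells it went from 123, 129 and 128 TPM to 157, 201 and 187 TPM (log2 0.51, adjusted p 0.0129). ATP6V0A4 was the single member that fell, from 9.29, 8.67 and 10.0 TPM to 2.42, 3.44 and 3.81 TPM in siCTRL cells (2.89-fold, log2 -1.30 ± 0.13 SE, adjusted p 1.53e-05), and by 0.61 in siMITF cells (adjusted p 0.00581) to 0.785, 1.11 and 0.894 TPM. In siCTRL cells it was the member past the 2-fold rule, and its libraries lay apart in both siRNAs. In siMITF cells the means of ATP6V0A4, 1.93 TPM without and 0.929 TPM with IFNγ, both lay below the 2 TPM limit for testing. It met that limit only in the siCTRL groups, so its fall in siMITF cells is a description.

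Other rises were smaller and several hung on 1 library. In siMITF cells ATP6V0E1 rose by 0.40 (adjusted p 0.00250), ATP6V1G1 by 0.43 (0.00408) and LAMP2 by 0.44 (0.00638). NPC2 rose by 0.30 in siCTRL cells (0.0469) and by 0.44 in siMITF cells (0.00431), and the former was lost without any 1 siCTRL or siCTRL + IFNγ library, siMITF replicate 1 or 2, or siMITF + IFNγ replicate 2 or 3 (0.0522 to 0.155). ATP6V0C rose by 0.31 in siCTRL cells (0.0195), lost without siCTRL replicate 2 or 3 or siCTRL + IFNγ replicate 2 (0.0509 to 0.0715). In siMITF cells ATP6V1H rose by 0.23 (0.0301), lost without any 1 siMITF library or siMITF + IFNγ replicate 1 or 3 (0.0607 to 0.115).

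CTSK in siMITF cells rose by 0.47 (adjusted p 0.0224), lost without siMITF replicate 2 or 3 or siMITF + IFNγ replicate 1 or 3 (0.0520 to 0.108). This rise also leads into the only group in which CTSK met the limit for testing. ATP6AP2 rose by 0.29 (0.0401), lost without siCTRL replicate 1 or 3, siCTRL + IFNγ replicate 3, any 1 siMITF library, or siMITF + IFNγ replicate 1 or 2 (0.0505 to 0.126). No call of IFNγ was made for a glycosidase in either siRNA, and 26 of the 40 members passed in neither. Of all tested genes only 12.9% were called in siCTRL cells and 20.2% in siMITF cells. The share of all genes called in neither is not given, so these counts are a description. With the block, calls were added for ATP6V1G1 (0.0151), NPC1 (0.0384) and LAMP1 (0.0285) in siCTRL cells, and for ATP6V0C (0.0462), ATP6V1E1 (0.0415), GUSB (0.0158, lower), ASAH1 (0.0411), NPC1 (0.0393) and GPNMB (0.0254) in siMITF cells.

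**Figure D4:**
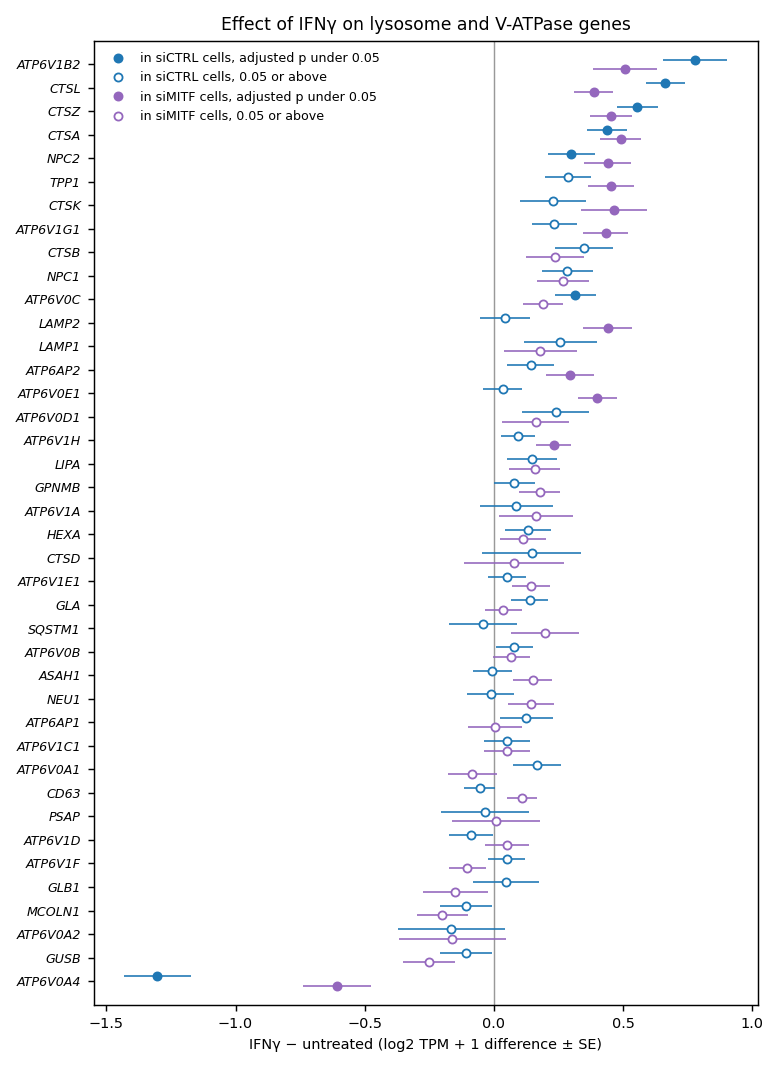
The IFNγ effect on each gene, as the difference in log2(TPM + 1) ± SE, in siCTRL cells (blue) and siMITF cells (purple), ordered by the mean of both; filled points had an adjusted p under 0.05. Most points lie between -0.3 and 0.6, and ATP6V0A4 stands alone at the lower end in both siRNAs.

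Both treatments together were compared with untreated siCTRL cells, a contrast that shares its control libraries with the single effects. In it 18 members fell and 8 rose, where 44.5% of all tested genes were called (21.1% higher, 23.4% lower), and the median member differed by -0.21. Rescaling without mitochondrially encoded genes turned the split over all genes from 2693 higher and 2995 lower to 3429 higher and 3128 lower. ATP6V0A4 stood at 0.785, 1.11 and 0.894 TPM against 9.29, 8.67 and 10.0 TPM, 10.0-fold lower (log2 -2.42 ± 0.13 SE, adjusted p 1.34e-08). ASAH1 differed by -1.61, GPNMB by -1.60, ATP6V0E1 by -1.56 and CTSL by -1.31. CTSK, at 2.68, 2.47 and 2.84 TPM, was 3.45-fold higher (log2 1.06 ± 0.13 SE, adjusted p 2.73e-05) and the one rise past the 2-fold rule, which 8.75% of all tested genes passed (5.61% higher, 3.13% lower). CTSK met the limit for testing only through its values in siMITF + IFNγ, so its rise here is a description.

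Some members that the treatments moved in opposite directions ended near their starting level. CTSZ read 323, 336 and 298 TPM in siCTRL and 304, 333 and 341 TPM in siMITF + IFNγ (log2 0.03, adjusted p 0.773), and ATP6V0C read 245, 229 and 229 TPM and 194, 230 and 227 TPM. For CTSB, 884, 995 and 890 TPM became 1135, 1402 and 1396 TPM, a called rise of 0.50 (adjusted p 0.00301). LIPA rose by 0.48, ATP6AP2 by 0.46 and LAMP2 by 0.41. The rises of ATP6V0A1 (0.30), ATP6V0B (0.24) and CTSA (0.23) and the falls of CTSD (0.52) and PSAP (0.48) were called at adjusted p of 0.0149 to 0.0447.

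Each of these 5 calls was lost without certain single libraries. For ATP6V0A1 they were siCTRL replicate 1 or 3 and siMITF + IFNγ replicate 2 or 3 (0.0602 to 0.0792), for ATP6V0B siCTRL replicate 1 or 3 and siMITF + IFNγ replicate 2 (0.0503 to 0.0626), and for CTSA siCTRL replicate 1 or 3 and siMITF + IFNγ replicate 2 or 3 (0.0718 to 0.113). PSAP lost it without siCTRL replicate 2 or 3 or siMITF + IFNγ replicate 1 (0.0718 to 0.138). CTSD lost it without any 1 siCTRL or siMITF library, siCTRL + IFNγ replicate 3 or siMITF + IFNγ replicate 1 (0.0527 to 0.169). The block added ATP6V0A2 (-0.36, adjusted p 0.0364), ATP6V1B2 (0.23, 0.0163), NEU1 (-0.23, 0.0166) and LAMP1 (0.19, 0.0484). Of all 12773 tested genes the block called 7262 in this contrast, in place of 5688.

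Whether the knockdown changed the response to IFNγ was tested as the interaction, in which the IFNγ effect of siCTRL cells is subtracted from that of siMITF cells. None of the 40 members passed in limma, 4 had an unadjusted p under 0.05, and 0.947% of all tested genes were called (121 of 12773, with 980 at an unadjusted p under 0.05). The interaction of the median member was 0.01, and 39 of the 40 had a 95% interval within 1 log2 unit of 0 on either side. ATP6V0A4 came closest, at 0.69 with an interval from 0.29 to 1.10 and an adjusted p of 0.150. On log2(TPM + 1) at such low levels this value depends on the scale, and it was 0.53 with a pseudocount of 0.1 and 0.45 under quantile normalization. ATP6V0E1 followed with 0.37 (adjusted p 0.210), which was called with the replicate block (0.0310). LAMP2 with 0.40 and CTSL with -0.28 were the others, at adjusted p of 0.364 and 0.481. Under quantile normalization LAMP2 was called (0.0106), and under centring of each library on its median LAMP2 (0.0132) and ATP6V0A4 (0.0397) were.

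A wider list of lysosomal and autophagy genes that are no members served as a comparison of the pathway at large. It held 131 symbols, of which 130 had an ID (TMEM55B had none under that symbol) and 119 were tested. For siMITF without IFNγ 37 fell and 17 rose, with a median of -0.03 beside the members' -0.33, and 45.4% of the list was called beside 34.8% of all tested genes, with 31.1% of the list lower beside 13.8%. With IFNγ 36 fell and 19 rose, 46.2% of the list beside 33.1% of all tested genes. IFNγ raised 12 and lowered 3 in siCTRL cells and raised 19 and lowered 5 in siMITF cells. At 12.6% and 20.2% of the list, the IFNγ calls of both directions together were at the background of 12.9% and 20.2%. By direction they were not: the lower calls were 2.52% and 4.2% of the list, beside 6.14% and 12.2% of all tested genes. The 12 and 19 higher calls among 119 genes stood beside 6.8% and 7.99% of all tested genes. Both lists were chosen with results known, so their shares are a description. By role, siMITF without IFNγ lowered 2 of 13 other V-ATPase genes and raised 3, lowered 3 of 10 other proteases and raised 2, lowered 2 of 20 other glycosidases and sulfatases and raised 3, lowered 5 of 11 other lipases, phosphatases and nucleases and raised 3, and lowered 6 of 17 other membrane proteins and raised 2. Among enzyme sorting genes 4 of 12 fell and none rose, and among autophagy and mTORC1 genes 13 of 33 fell and 3 rose.

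ATP6V0E2, the other e subunit gene, differed in direction from ATP6V0E1. It read 69.5, 71.7 and 67.3 TPM in siCTRL and 105, 124 and 116 TPM in siMITF, a rise of 0.71 ± 0.13 (SE) on the log2 scale (adjusted p 0.000827), where ATP6V0E1 fell by 1.96. In siMITF cells the level of ATP6V0E2 was therefore above that of ATP6V0E1 in all 3 libraries, and in siCTRL cells below it in all 3. GAA, which digests glycogen, rose by 0.86, and GM2A, the activator that serves HEXA, fell by 1.37. ACP5, the tartrate-resistant acid phosphatase, fell by 1.55. CTSH, an aminopeptidase, fell by 1.42 with IFNγ, where SLC17A5, the sialic acid exporter, rose by 0.97 and FUCA1, a fucosidase, by 0.75.

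The strongest rises with IFNγ were outside the 40 genes. IFI30, a thiol reductase of antigen processing, read 7.99, 7.19 and 5.92 TPM in siCTRL and 139, 170 and 139 TPM in siCTRL + IFNγ (log2 4.23 ± 0.11 SE, adjusted p 2.01e-11). CTSS, the cathepsin known for trimming the MHC class II invariant chain, rose by 3.28 and LGMN, the asparaginyl endopeptidase, by 2.58 on the log2 scale, and in siMITF cells the rises were 4.16, 3.27 and 2.37. The largest rise among members was the 0.78 of ATP6V1B2. On the lower side were SUMF1, which activates sulfatases (-0.50 in siCTRL, lost without siCTRL replicate 2 at 0.0671 or siCTRL + IFNγ replicate 3 at 0.0505), the thioesterase PPT1 (-0.28 in siCTRL cells, adjusted p 0.0234), CTSV (-0.56 in siMITF cells) and ATP6V1E2 (-0.44 in siMITF cells). PPT1 was lost without siCTRL replicate 2 or 3 or siCTRL + IFNγ replicate 1 or 3 (0.0612 to 0.0939), and ATP6V1E2 without siMITF or siMITF + IFNγ replicate 2 (0.0560 to 0.0951). Within the wider list FNIP2 (-1.55) and GNPTAB (-1.40) fell most in the combination after MITF.

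Of the family of factors to which MITF belongs, TFEB fell with siMITF, from 7.11, 7.79 and 7.07 TPM to 2.74, 2.75 and 2.78 TPM (log2 -1.15 ± 0.13 SE, adjusted p 1.75e-05). TFE3 rose from 27.0, 29.3 and 27.6 TPM to 35.3, 38.4 and 35.3 TPM (log2 0.37, adjusted p 0.0161), lost without siCTRL replicate 1 or 3 or siMITF replicate 2 (0.0520 to 0.0673). TFEC was not tested and stood at 0.0573 TPM at most. With IFNγ present TFEB fell by 0.87 and TFE3 rose by 0.30 (0.0441, lost without 10 of the 12 libraries at 0.0523 to 0.151).

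The promoter motifs were set beside the siMITF effects as a description. CACGTG stood in the promoters of 9 members, which is 20.5% when set against the 44 member starts. It stood in 7.26% of all 35116 starts in the reference, both strands read. These percentages set members against starts, so they may differ from the share of member starts with a match. The longer TCACGTGA, which contains CACGTG, stood in the promoters of 5 members (11.4%, beside 0.98%). The full palindrome of the CLEAR element stood in those of 2 members (4.55%, beside 0.353%), and CATGTG in those of 6 (13.6%, beside 11.1%). Members with CACGTG had a median siMITF effect of -0.37 without IFNγ and those without it -0.29, and with IFNγ the order turned, at -0.22 and -0.31. For TCACGTGA the medians were -0.26 and -0.33 without IFNγ and -0.21 and -0.32 with it. The 6 members with CATGTG, which were GPNMB, CD63, ATP6V1F, ATP6V0C, TPP1 and CTSA, were all lower, with a median of -0.44 beside -0.20 in the other 23, and with IFNγ 4 of the 6 were lower, with medians of -0.57 and -0.20. Of the promoters shown with TCACGTGA, those of ATP6V1G1, ATP6V0D1 and CTSA belonged to genes that fell, and those of LAMP1 and MCOLN1, with 2 matches each, to genes whose groups overlapped. A match of letters is not a bound site.

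**Figure D5:**
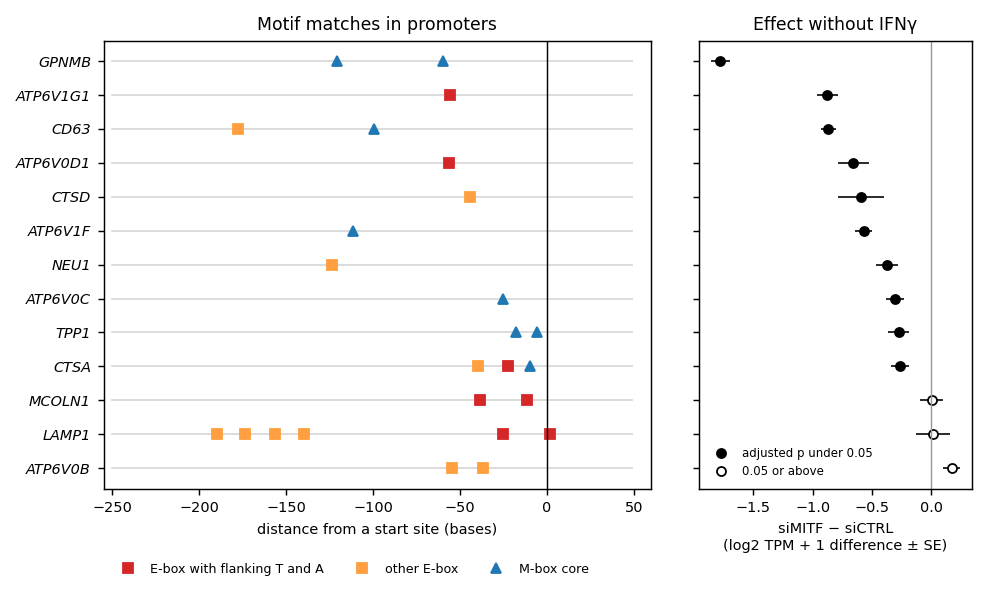
Left, the midpoints of motif matches in the promoters of the 13 genes that hold one, in bases from a start site (vertical line). Right, the siMITF effect of the same genes without IFNγ as a difference in log2(TPM + 1) ± SE, filled where the adjusted p was under 0.05. The genes with an extended E-box (red) are spread from ATP6V1G1 at -0.88 to LAMP1 at 0.01.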

How the data were processed

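Total RNA of 624Mel cells was sequenced in 12 libraries, 3 for each of 4 groups given by the labels. Reads were trimmed by the authors (Trimmomatic 0.39) and pseudoaligned with kallisto to human Ensembl transcripts of GRCh38, and what they deposited is TPM for each gene ID without counts, so the depth is unknown. The Ensembl release is not given in the sources used here. TPM is relative to the library total, so a large change in some genes shifts others.

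IDs were matched to symbols with a gene name table (35520 of 40173 matched). From the deposited TPM, log2(TPM + 1) was fitted with limma 3.58.1 in R 4.3.3, with 1 coefficient per group over all 12 libraries, an intensity trend and a minimum mean of 2 TPM in a group. Tests were two-sided and adjusted by the Benjamini-Hochberg method over 12773 IDs, and "called" or "passed" means an adjusted p under 0.05. A fold change on this log2 scale understates low genes, and folds given as such are ratios of mean TPM. Positions are from GENCODE 44 and promoters from RefSeq. Python 3.11.15 (pandas 2.3.3, numpy 2.4.6) served for tables and matplotlib 3.10.9 for plots.

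No pair of libraries held identical values. After subtracting group means, the 18 pairs of libraries with the same replicate number correlated at 0.102 to 0.626 across genes, and the 36 pairs with different numbers had a median of -0.196. Subtracting group means ties these values together, since pairs with the same number above 0 push the others below 0. The labelled numbers were taken as a possible pairing of the libraries. The main fit has no term for that number, and the fit was repeated with it as a blocking term. Further alternatives were pseudocounts of 0.1 and 0.5, no filter, a mean of at least 5 TPM, quantile normalization, median centring, rescaling without mitochondrially encoded genes, no trend, only the groups compared, TPM summed by symbol, the study's 2-fold rule, an adjusted p under 0.01 and each library left out in turn. The members, lists, named genes and motifs were chosen with earlier results of these data known. Named genes of the wider list were up to 3 rises and 3 falls of largest size per comparison among genes called with no overlap of libraries, and the transcription factors of the MITF family. A result that this rule named is not reported here.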

Additional observations from a re-analysis of the deposited data

Results flagged for a closer look

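CTSC, the dipeptidyl peptidase that activates granule proteases and is no member of the 40 genes, was the one gene of the wider list whose IFNγ effect differed between siRNAs in the test of the interaction. It read 193, 208 and 197 TPM in siCTRL, 230, 266 and 243 TPM in siCTRL + IFNγ, 192, 196 and 193 TPM in siMITF, and 371, 358 and 362 TPM in siMITF + IFNγ. IFNγ raised it by 0.30 on the log2 scale in siCTRL cells (adjusted p 0.00720) and by 0.91 in siMITF cells (adjusted p 3.94e-07), and the interaction was 0.60 ± 0.09 (SE, limma adjusted p 0.00624). No member of the 40 genes was called in that test.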

How the results depend on the processing

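The siMITF and combination counts stayed within 1.5 times of 27, 24 and 26 members under every setting except the 2-fold rule, which left 5 without IFNγ, 5 with IFNγ, 6 in the combination, 1 for IFNγ in siCTRL cells and 0 for IFNγ in siMITF cells. No called value changed sign. The IFNγ counts rose from 7 in siCTRL cells to 14 under quantile normalization, 11 under median centring, 12 after rescaling without mitochondrially encoded genes and 12 with the replicate block, and from 13 in siMITF cells to 23, 22, 21 and 20 in the same order. Calls over all tested genes (12773, and 13032 after rescaling) rose too. In that order they went from 1652 to 2825, 2814, 2354 and 3281 in siCTRL cells, and from 2574 to 3996, 3810, 3214 and 4556 in siMITF cells. The cause was not tested. The interaction count of 0 became 1 under quantile normalization, 2 under median centring and 1 with the replicate block. Over all tested genes that count went from 121 to 294, 263 and 276 in the same order. The block ended no member's call and added 26. Of the 12773 tested genes it called 6094 in place of 4448 for siMITF without IFNγ, 5912 in place of 4229 with IFNγ and 7262 in place of 5688 for the combination.

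Leaving out single libraries gave 22 to 29 members for siMITF without IFNγ, 22 to 25 with IFNγ, 5 to 10 for IFNγ in siCTRL cells, 10 to 13 in siMITF cells, 21 to 28 for the combination and 0 to 0 for the interaction. Medians ran from -0.368 to -0.300, -0.453 to -0.317, 0.0361 to 0.207, 0.112 to 0.191, -0.266 to -0.136 and -0.0817 to 0.108 in that order. The median for IFNγ in siCTRL cells was 0.207 without siCTRL + IFNγ replicate 1 and 0.0361 without replicate 2, and that of the interaction -0.0817 and 0.108 without the same libraries. A mean of at least 5 TPM dropped 2 members, CTSK and ATP6V0A4. Depth is unknown, so counting error could not be separated from the spread between libraries.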
